A study of Danio rerio with 7 samples.

Results

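The genes followed here belong to pteridine synthesis and to the xanthophore, the yellow pigment cell of zebrafish, and are gch2, pts, qdpra, xdh, aox5, akr1b1.1, slc2a15b and cx30.3. They were taken by symbol, and all 8 were found in both count tables, which together hold 19648 genes, 16600 of them in both. Pteridines are yellow and fluorescent compounds that are built from GTP: a GTP cyclohydrolase opens the pathway, a pyruvoyl-tetrahydropterin synthase carries it to the branch point shared with tetrahydrobiopterin, and oxidases that need a molybdenum cofactor act further on. Xanthophores and the black melanophores both descend from the neural crest (NC). The transcription factor mitfa is best known from melanophores, and pax7a from the xanthophore lineage.

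The cells were single NC cells of AB strain zebrafish embryos carrying Tg(sox10:nEOS)w18, a sox10-driven nuclear protein that turns from green to red under violet light. The stream of NC cells entering the first pharyngeal arch was converted in the embryo, and red cells were sorted and captured in droplets. The timeline libraries cover 12, 14, 18, 20, 24 and 30 hours post-fertilization (hpf), and a second library at 18 hpf was made with chemistry v3 in place of v2. All groups share the transgene, there was no treated or mutant group, and each group is 1 library pooled from several embryos. 18 hpf is the one age with 2 libraries, of different chemistry, so no comparison between ages was tested with replicates. A sox10 reporter marks NC and some other sox10-positive cells, so the sort alone does not make a cell NC.

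The 7 libraries hold 2854 cells. The 6 timeline libraries have 131 to 516 cells with medians of 10807.5 to 19222 unique molecular identifiers (UMIs) per cell, and the second 18 hpf library has 979 cells with a median of 23038. Levels are given as CPM, the UMIs of a gene in 1000000 UMIs of the cells named, and all intervals are exact 95% intervals for counting error only. A cell was called positive for mitfa, pax7a or mfap4 with 1 UMI or more. Cells with mfap4, a macrophage gene, were set apart first, and the others were divided into mitfa and pax7a cells, mitfa-only cells, pax7a-only cells and cells with neither. This did not free the other groups of macrophage markers. Leaving out cells with other macrophage markers took the cells with neither gene from 827 to 735 in the second 18 hpf library. In the first 18 hpf library it took them from 227 to 191. The 30 hpf library stands apart, with no pax7a cell and with 47 of its 131 cells marked by the doublet caller, and the second 18 hpf library was deeper than the rest.

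Most of the genes were counted in numbers only from 18 to 24 hpf, and 6 of the 8 had no UMI at 30 hpf, where no pax7a cell was captured. gch2, the GTP cyclohydrolase that opens pteridine synthesis, had 2, 0, 19, 9942, 16932 and 0 UMIs in the timeline libraries of 12, 14, 18, 20, 24 and 30 hpf. Its level was 5.93 CPM in the 18 hpf library (3.57 to 9.26), 1021 CPM in that of 20 hpf (1001 to 1042) and 3223 CPM in that of 24 hpf (3175 to 3272). The second 18 hpf library had 3572 UMIs of gch2, or 149 CPM (144 to 154). The 2 libraries of 18 hpf thus differed in gch2 far beyond counting error, and they differ in chemistry, depth and number of cells, whose part in this was not tested. Cells with a gch2 UMI made up 2.02% and 6.13% of the first and second 18 hpf libraries, and 13.8% and 24.0% of the 20 and 24 hpf libraries.

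pts, the synthase that follows gch2, had 0, 0, 12, 319, 339 and 0 UMIs over the same timeline and 402 in the second 18 hpf library. Its level was 3.74 and 16.8 CPM in the first and second 18 hpf libraries, then 32.8 and 64.5 CPM in those of 20 and 24 hpf. qdpra, a dihydropteridine reductase that regenerates tetrahydrobiopterin, was the exception among the 8. It had 62, 34, 117, 493, 303 and 14 UMIs over the timeline, beside 1215 in the second 18 hpf library. qdpra was thus found in every library, in 20.6% of cells at 12 hpf before mitfa was seen in any cell, and its level ran only from 8.18 CPM (30 hpf) to 57.7 CPM (24 hpf).

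Neither oxidase was seen in the first 18 hpf library, where pts was. aox5, an aldehyde oxidase much used as a xanthophore marker, had 216, 387 and 315 UMIs in the second 18 hpf, 20 hpf and 24 hpf libraries and none in the other 4. xdh, the xanthine dehydrogenase, had 3, 15 and 47 UMIs in the same libraries and none in the other 4. A count of 0 allows up to 0.765 CPM in the 14 hpf library and up to 1.75 CPM in that of 30 hpf, so a level like that of xdh at 20 hpf, 1.54, could not have been told from 0 at 30 hpf.

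akr1b1.1, an aldo-keto reductase, had 1, 3, 13, 2212, 1839 and 7 UMIs over the timeline, beside 678 in the second 18 hpf library. slc2a15b, of the sugar transporter family and known from pigment cell mutants of medaka, had 1, 2, 8, 442, 299 and 0 UMIs over the timeline, beside 98 in the second 18 hpf library. cx30.3, a connexin of gap junctions, had 0, 0, 1, 698, 688 and 0 UMIs over the timeline, beside 72 in the second 18 hpf library. By CPM all 8 genes were highest in the 24 hpf library, at 350 for akr1b1.1, 56.9 for slc2a15b and 131 for cx30.3, and only qdpra and akr1b1.1 were seen at 30 hpf.

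**Figure D1:**
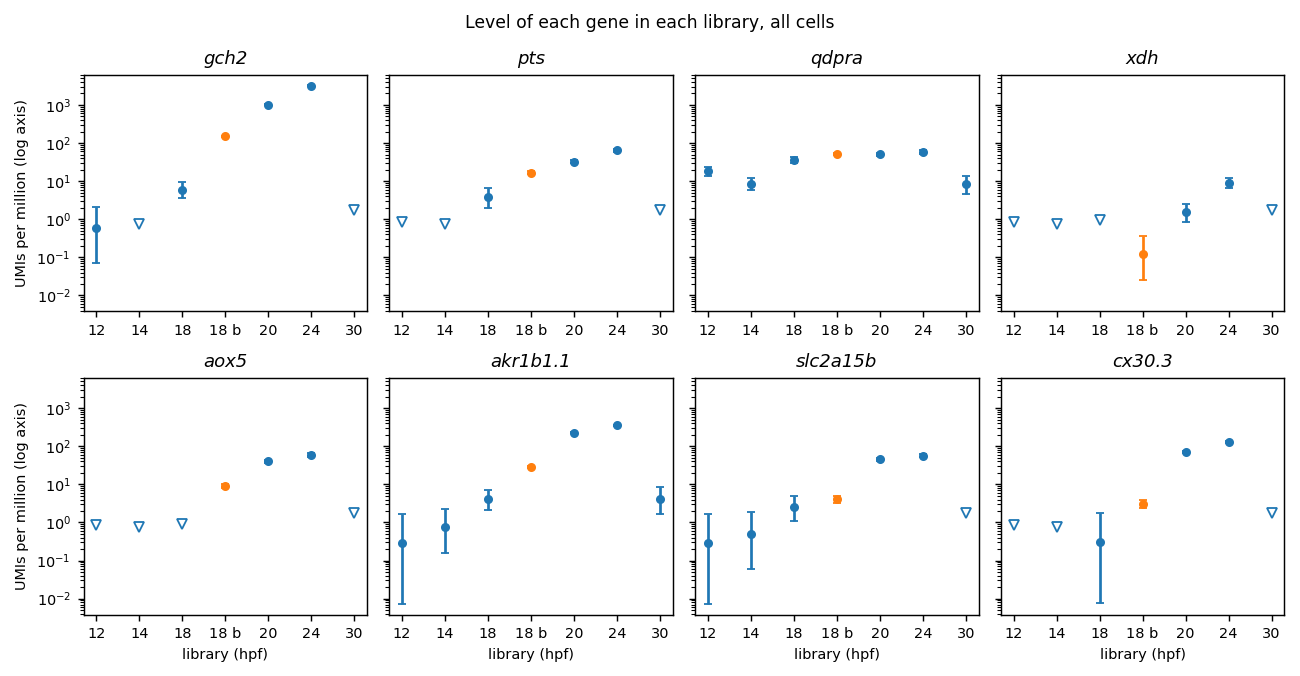
Level of each of the 8 genes in each library over all cells, in CPM on a log axis, with exact 95% Poisson intervals. The orange point (18 b) is the second 18 hpf library, and open triangles mark libraries with no UMI, drawn at the level that 3 counts would give; gch2 climbed from 5.93 at 18 hpf to 3223 at 24 hpf while qdpra was present in all 7 libraries.

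A linear trend over the 6 timeline libraries called none of the members. By edgeR's quasi-likelihood test with Benjamini-Hochberg adjustment, 0 of the 7 members tested passed, against 4.62% of all genes tested (463 of 10021), and xdh was too low to be tested. The slope of gch2 was 0.83 per hour on the log2 scale (SE 0.44, adjusted p = 0.309). None of the 7 had an unadjusted p under 0.05, the lowest being 0.100 for gch2. With the 30 hpf library left out, gch2, pts, akr1b1.1 and slc2a15b passed upwards, where 3.74% of all genes tested were called (369 of 9857), with a gch2 slope of 1.29 (edgeR adjusted p = 0.0434). DESeq2's Wald test on all 6 libraries called 3 members, gch2, akr1b1.1 and cx30.3, where it called 11.8% of all genes tested (1183 of 10021), with a gch2 slope of 1.00 (adjusted p = 0.0134).

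Within the second 18 hpf, 20 hpf and 24 hpf libraries most gch2 UMIs, though not most cells with gch2, were in cells that had both mitfa and pax7a. There were 25 such cells in the second 18 hpf library, 31 at 20 hpf and 21 at 24 hpf, and none at 12, 14, 18 or 30 hpf. The level of gch2 in these cells was 3365, 13596 and 50569 CPM in the second 18 hpf, 20 hpf and 24 hpf libraries, and the median cell at 24 hpf had 522 gch2 UMIs per 10000. In mitfa-only cells of the same libraries gch2 was at 1.45, 3.19 and 247, and in cells with neither gene at 5.98, 5.43 and 15.8. The ratio of mitfa and pax7a cells to mitfa-only cells was 2320 (642 to 19167), 4267 (1181 to 35240) and 205 (155 to 276). Cells with both genes held 74.0%, 92.9% and 95.6% of all gch2 UMIs of these libraries, but only 43.8%, 61.7% and 34.0% of those of qdpra. For the other 6 genes the share was 33.3% (1 of 3 UMIs of xdh) to 71.1% in the second 18 hpf library and 85.8% to 97.9% at 20 and 24 hpf. In the cells with neither gene of the second 18 hpf library, 89 of the 117 gch2 UMIs were in 1 cell.

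Every other member but qdpra was likewise higher in mitfa and pax7a cells than in mitfa-only cells in each library. In the doubly positive cells pts was at 363, 405 and 972 CPM in the second 18 hpf, 20 hpf and 24 hpf libraries, against 8.70, 6.37 and 39.6 in mitfa-only cells. aox5 was at 150, 512 and 938 in the doubly positive cells, against 7.25, 4.78 and 4.94 in mitfa-only cells. slc2a15b was at 82.7, 592 and 888, against 1.45, 6.37 and 49.4. In each case the doubly positive cells lay more than 10 times above the mitfa-only cells.

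cx30.3 was not seen outside pax7a cells and a few cells with neither gene, with 48.4, 904 and 2075 CPM in mitfa and pax7a cells and no UMI in the mitfa-only cells of any library, though 32 of the 38 UMIs in the doubly positive cells of the second 18 hpf library were in 1 cell. Against 3 counts in each library's mitfa-only cells, cx30.3 was at least 22.2-fold, at least 189-fold and at least 140-fold higher. xdh likewise had no UMI in mitfa-only cells, in mfap4 cells or in the cells with neither gene, and was at 1.27, 19.1 and 144 CPM in mitfa and pax7a cells. At 24 hpf xdh was at least 9.69-fold higher than in mitfa-only cells and at least 216-fold higher than in cells with neither, the second 18 hpf library giving no fold because its 1 UMI is under the floor. akr1b1.1 was at 613, 2796 and 5213 in the doubly positive cells and at 16.0, 156 and 534 in mitfa-only cells, so mitfa-only cells also carried it. Set against cells with neither gene, mitfa-only cells were higher in pts as well, at ratios of 7.10, 24.1 and 44.5 in the 3 libraries by age. For gch2 that ratio was 15.7 at 24 hpf (10.7 to 22.8), but 0.243 in the second 18 hpf library and 0.587 at 20 hpf (0.0688 to 2.26). The 2 low ratios each rest on 2 gch2 UMIs in mitfa-only cells, some of which had macrophage markers in those libraries. At 24 hpf 6 of the 13 mitfa-only cells had 4 or more of the 8 genes.

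qdpra went the other way at the last age. In mitfa and pax7a cells qdpra was at 677, 448 and 322 CPM in the 3 libraries by age, and in mitfa-only cells at 98.6, 131 and 638. It was thus higher with pax7a than without at the first 2 of these ages and lower at 24 hpf, where the ratio was 0.505 (0.386 to 0.659). The mitfa-only cells also changed in make-up: at the first 2 ages, but not at 24 hpf, some had 2 or more macrophage markers. Leaving those cells out gave a fitted log2 difference over the 3 libraries of 0.65 in place of 1.08. Their part in the change between ages was not tested.

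**Figure D2:**
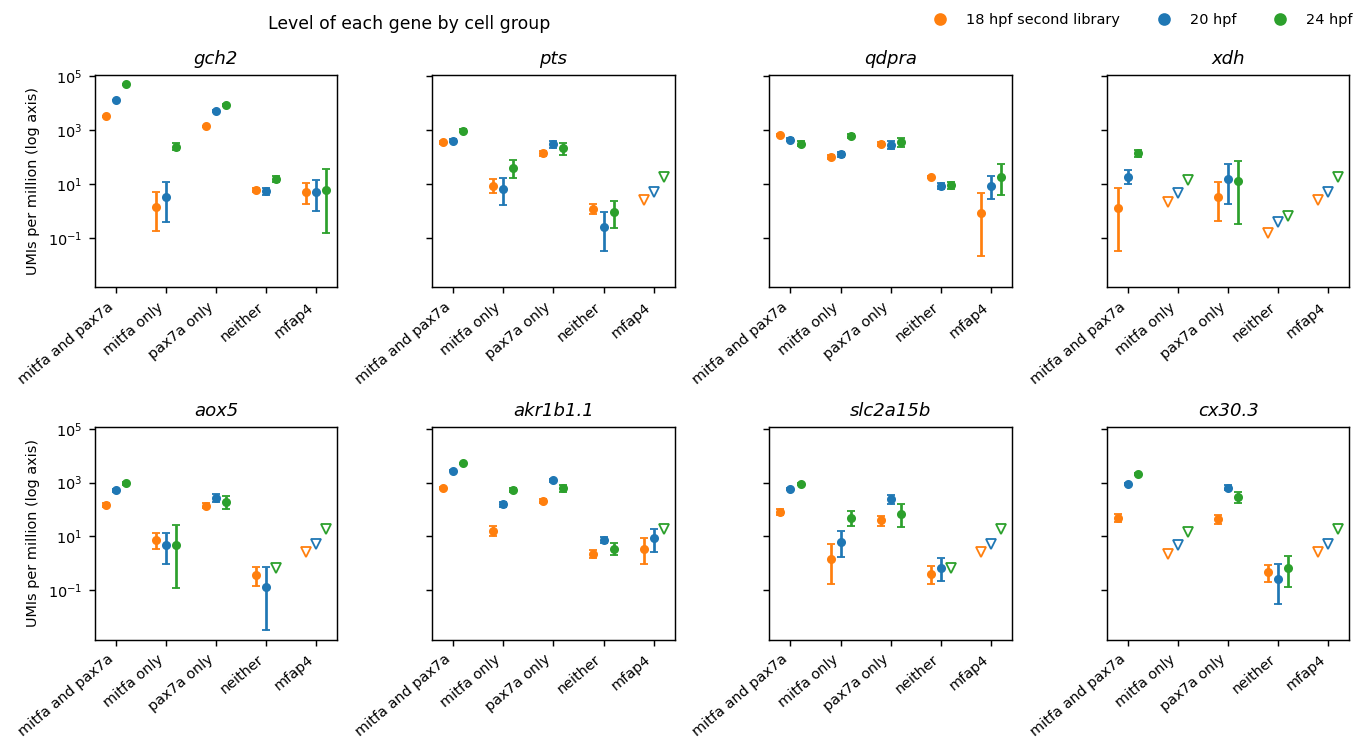
Level of each gene by cell group in the second 18 hpf library (orange), at 20 hpf (blue) and at 24 hpf (green), in CPM on a log axis, with exact 95% Poisson intervals and open triangles at the level of 3 counts where no UMI was found. The mitfa and pax7a cells are the highest group for gch2, aox5 and akr1b1.1 in all 3 libraries, while qdpra at 24 hpf is highest in mitfa-only cells (638 against 322).

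Between libraries, the doubly positive cells themselves changed. From 20 to 24 hpf, in libraries of the same chemistry, the CPM ratio was 3.72 for gch2 (3.63 to 3.82), 2.40 for pts (2.03 to 2.83), between 2.05 and 2.57 for cx30.3 and 7.51 for xdh (3.99 to 15.2). aox5, akr1b1.1 and slc2a15b were 1.83, 1.86 and 1.50 times as high at 24 hpf as at 20 hpf, and qdpra 0.719 times (0.569 to 0.902). These ratios compare 1 library with 1 other and carry no replicate check. From the second 18 hpf library to 20 hpf the ratios were 18.7 for cx30.3, 7.16 for slc2a15b, 4.04 for gch2, 1.12 for pts (0.943 to 1.32) and 0.661 for qdpra, across 2 chemistries whose part was not tested.

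The share of doubly positive cells with a UMI differed between the genes. In the second 18 hpf library qdpra was in 100% of these 25 cells, pts and akr1b1.1 in 88.0%, gch2 and aox5 in 84.0%, slc2a15b in 72.0%, cx30.3 in 12.0% and xdh in 4.00%. With each cell thinned to 5000 UMIs the shares were 92.0% for qdpra, 80.0% for akr1b1.1, 72.0% for gch2, 64.0% for pts, 28.0% for aox5, 24.0% for slc2a15b, 4.00% for cx30.3 and 0% for xdh. qdpra, akr1b1.1, gch2 and pts were thus found in more of the cells than cx30.3 and xdh at either depth, and the interval for cx30.3 over 25 cells was 2.55% to 31.2%.

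At 20 hpf cx30.3 was in 74.2% of the 31 doubly positive cells and xdh in 29.0%, and at 24 hpf in 100% and 85.7% of the 21. Thinned to 5000 UMIs, the values were 64.5% and 3.23% at 20 hpf and 100% and 33.3% at 24 hpf. All of the other members were in at least 93.5% of these cells at 20 hpf and in at least 95.2% at 24 hpf.

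The differences between groups were tested on UMIs summed per library and group, with the library as a block, by edgeR's quasi-likelihood test with Benjamini-Hochberg adjustment over all genes. The groups were set by UMIs of mitfa and pax7a in the same cells, so the p-values serve as description only. They weigh the mean group difference against the spread left in the fit, over libraries that also differ in age and chemistry. Against cells with neither gene, mitfa and pax7a cells had all 8 members higher, where 9.00% of all genes tested were called higher. gch2 differed by 10.42 on the log2 scale (SE 1.04, adjusted p = 0.000327), pts by 8.92 (SE 0.67, adjusted p = 0.000172) and qdpra by 5.14 (SE 0.73, adjusted p = 0.00124), each higher in 3 of 3 libraries. xdh had no UMI in the cells with neither gene and an edgeR adjusted p of 0.00415, which was 0.0743 at the highest among its alternatives (DESeq2's Wald test). It entered the test only through other groups, so its call adds nothing to its counts.

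Against mitfa-only cells, 6 of the 8 members were higher in mitfa and pax7a cells, where 1.26% of all genes tested were called higher. gch2 differed by 9.22 (SE 1.05, adjusted p = 0.00222), pts by 5.49 (SE 0.64, adjusted p = 0.00222), aox5 by 6.00 (SE 0.72, adjusted p = 0.00375), akr1b1.1 by 4.14 (SE 0.74, adjusted p = 0.0133) and slc2a15b by 5.39 (SE 0.87, adjusted p = 0.00807). The sixth was cx30.3, with an edgeR adjusted p of 0.00648. It had 1316 UMIs in doubly positive cells and none in mitfa-only cells, so it entered the test only through other groups. Its call therefore adds nothing to those counts. qdpra had a difference of 1.08 (SE 0.69, adjusted p = 0.545), higher in 2 of 3 libraries, and xdh an adjusted p of 0.0678. Without the 20 hpf library 0 of the 7 members tested passed, with adjusted p of 0.0783 at the lowest, and 2 genes of all were called in place of 268. The fitted differences over the libraries that remained were 8.47 for gch2, 5.16 for pts and 5.70 for aox5. Without the block for library 3 of the 8 passed, where 0.290% of all genes tested were called in either direction.

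pax7a-only cells, 13 in the first and 25 in the second 18 hpf library, had 7 of the 8 members higher than cells with neither gene, where 0.753% of all genes tested were called higher. gch2 differed by 8.05 (SE 1.01, adjusted p = 0.00621), aox5 by 9.32 (SE 0.96, adjusted p = 0.00555) and qdpra by 3.56 (SE 0.74, adjusted p = 0.0489). gch2 and qdpra were higher in both libraries, while aox5 was seen in the second only and cx30.3 was higher in the second and lower in the first. In the second 18 hpf library gch2 stood at 1388 CPM in pax7a-only cells, 539 of its 803 UMIs there being in 1 cell, against 3365 in cells with both genes, and aox5 at 140 (111 to 174) against 150 (124 to 180). The ratio of cells with both genes to pax7a-only cells was 1.07 for aox5 in that library (0.802 to 1.44), but 1.86 at 20 hpf (1.31 to 2.72) and 4.98 at 24 hpf (2.92 to 9.22), where the pax7a-only cells numbered 6 and 5. Those pax7a-only cells were uneven: at 24 hpf 1 of the 5 had all 8 genes, 2 had 1 gene and 2 had none. At 20 hpf 3 of the 6 had 4 or more of the genes. The intervals treat UMIs as independent, so the ratios at 20 and 24 hpf may rest on few cells, and no difference between ages is read from them. All groups and libraries shared 1 fit, so the log2 differences above were not taken from the 18 hpf libraries alone. The 20 and 24 hpf libraries, with too few pax7a-only cells for a summed profile, entered through the other groups. With the 20 hpf library left out, 3 of 7 members passed, and without the library block 2 of 8. The shares of all genes tested that were called in either direction were 0.308% and 0.130%.

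When all mitfa cells were set against all remaining cells without mfap4, all 8 members were higher in the mitfa cells, where 7.55% of all genes tested were called higher. The differences ran from 4.29 for qdpra (SE 0.49, adjusted p = 0.00247) to 6.29 for gch2 (SE 0.60, adjusted p = 0.00181), each in 3 of 3 libraries. With tfec, another transcription factor of early pigment cells, in place of mitfa 7 of the 8 passed, the exception being xdh. There 8.36% of all genes tested were called in either direction. tfec itself was called higher in mfap4 cells than in the remaining cells. It was in 18.6% of cells at 14 hpf, where no cell had mitfa. With mitfa but without the block for library, 6 of the 8 passed, where 3.90% of all genes tested were called in either direction.

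**Figure D3:**
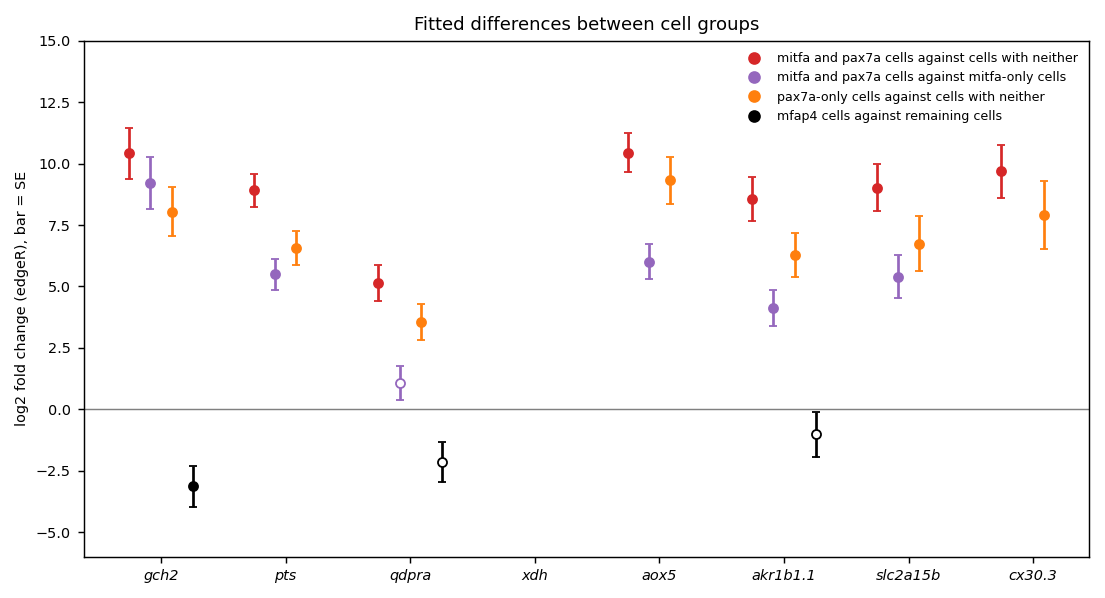
Fitted log2 fold change of each gene in 4 comparisons of cell groups, with bars of 1 standard error and filled points where the adjusted p was under 0.05. Genes with no UMI in one of the groups, among them xdh in all 4 comparisons drawn, are left out because their fitted value depends on the prior count; gch2 lies at 10.42 against cells with neither gene and at 9.22 against mitfa-only cells, while qdpra lies at 1.08 against mitfa-only cells.

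Single cells carried the genes together. The median number of the 8 genes detected in a mitfa and pax7a cell was 6 in the second 18 hpf library, 7 at 20 hpf and 8 at 24 hpf, against 1, 1 and 2 in mitfa-only cells and 0 in cells with neither gene. Cells with 4 or more of the genes numbered 3 at 18 hpf, 35 in the second 18 hpf library, 38 at 20 hpf and 28 at 24 hpf, and there were none at 12, 14 and 30 hpf. Of these, 33 of 35, 37 of 38 and 28 of 28 had mitfa or pax7a in the last 3 libraries, but only 1 of 3 at 18 hpf, where mitfa was found in 5 cells with 1 UMI each. All of them had sox10, which was found in 85.5%, 46.7% and 48.3% of the other cells of the second 18 hpf, 20 hpf and 24 hpf libraries, and none had mfap4. In the first 18 hpf library none of the 5 mitfa cells had a UMI of any of the 8 genes, and 4 of these cells had 2 or more macrophage markers while 1 had 2 or more NC markers.

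The mitfa and pax7a calls overlapped with the genes unevenly. At 20 hpf 29 of the 71 cells with gch2 had both genes, and those 29 cells held 92.9% of the gch2 UMIs, while 36 of the 71 had neither gene and held 0.443%. In the second 18 hpf library 32 of the 39 aox5 cells had pax7a and 24 had mitfa, and at 24 hpf all 23 aox5 cells had mitfa or pax7a. In the first 18 hpf library 68.4% of the gch2 UMIs were in 1 pax7a cell and none in a mitfa cell.

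**Figure D4:**
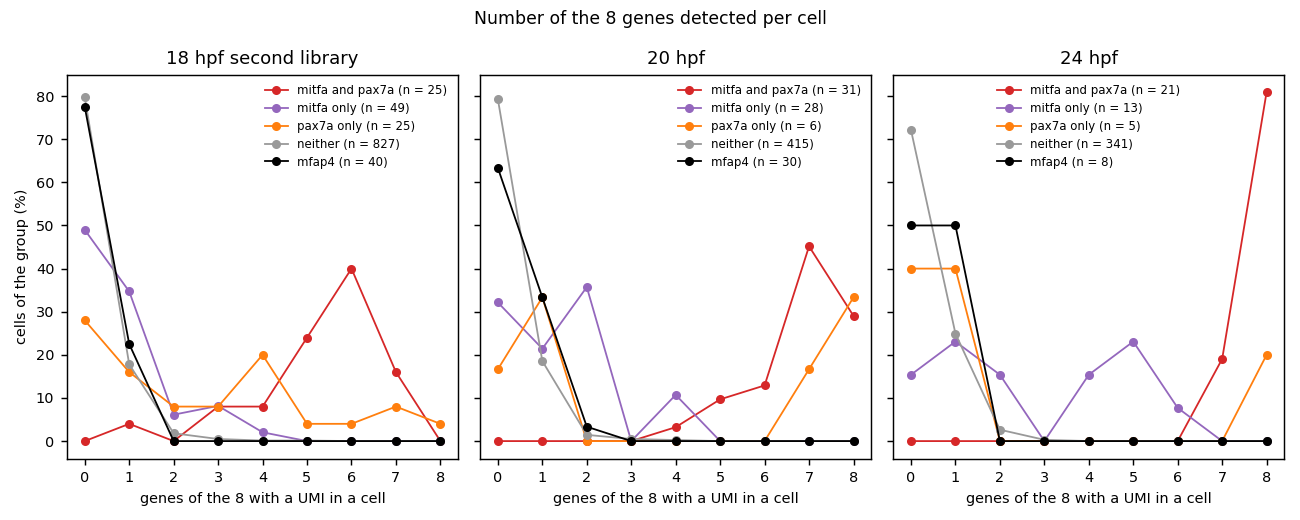
Share of cells in each group, in percent, by how many of the 8 genes had a UMI, in the second 18 hpf library, at 20 hpf and at 24 hpf. The mitfa and pax7a cells peak at 6, 7 and 8 genes, the mfap4 cells never go beyond 2, and the mitfa-only cells of 24 hpf spread from 0 to 6.

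Across cells, the level of most members followed pax7a more closely than mitfa. Pearson's r on log values per cell was averaged over the second 18 hpf, 20 hpf and 24 hpf libraries, with 979, 516 and 388 cells that share library and depth, and is given as a description. gch2 had a mean r of 0.870 with pax7a and 0.598 with mitfa, pts 0.876 and 0.620, and aox5 0.867 and 0.560. For qdpra the 2 were nearly equal, at 0.654 and 0.666. cx30.3 had 0.661 and 0.416, with a low of 0.234 and 0.118 in the second 18 hpf library, where it was found in 11 cells. The r of gch2 with mitfa ran from 0.498 in the second 18 hpf library to 0.748 at 24 hpf, and with pax7a from 0.751 to 0.948. mitfa had fewer UMIs than pax7a, 424, 313 and 203 against 966, 474 and 579 in the 3 libraries by age. It was also found in cells with macrophage markers. The part of either in its lower r was not tested.

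Of 9537 other genes, the most similar to gch2 were pts (mean r 0.905), the unnamed gene CABZ01021592.1 (0.891), slc2a15b (0.886), akr1b1.1 (0.882) and mocos (0.880), the sulfurase that activates molybdenum cofactor enzymes. pts had gch2, aox5, akr1b1.1, pax7a and slc2a15b, and the 5 genes nearest to aox5 were pts, slc2a15b, CABZ01021592.1, pax7a and gch2. akr1b1.1 and slc2a15b likewise had gch2 first, and cx30.3 had CABZ01021592.1 first at a mean r of 0.772. qdpra alone had melanosome genes first, the channel trpm1b (0.820) and the receptor gpr143 (0.793), followed by cax1, tfap2e and akr1b1.1. xdh had too few UMIs to be ranked.

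In cells with mfap4 of the second 18 hpf, 20 hpf and 24 hpf libraries 5 of the 8 genes had no UMI. The mfap4 cells carried other macrophage genes: 36 of 40 in the second 18 hpf library, 24 of 30 at 20 hpf and 7 of 8 at 24 hpf had 2 or more of the other markers, such as spi1b, lcp1 and coro1a. In these cells pts, xdh, aox5, slc2a15b and cx30.3 had no UMI, which over the 40 cells of the second 18 hpf library allows up to 2.54 CPM. gch2 had 6, 3 and 1 UMIs in them, never more than 1 in a cell, akr1b1.1 had 4, 5 and 0, and qdpra 1, 5 and 3. At 24 hpf qdpra was at 18.8 CPM in them against 9.12 in cells with neither gene (ratio 2.06, 0.408 to 6.46). At 30 hpf 4 of the 5 mfap4 cells without mitfa had qdpra, with 6 of its 14 UMIs, or 68.1 CPM (25.0 to 148) against 4.97 in cells with neither gene (2.15 to 9.80). All 5 of these mfap4 cells were marked by the doublet caller, so this level is not read as that of macrophages. In the first 18 hpf library 1 of 3 mfap4 cells held 7 qdpra UMIs and 1 held 1 UMI of slc2a15b. Against mfap4 cells pts was at least 143-fold, at least 80.5-fold and at least 51.7-fold higher in mitfa and pax7a cells.

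By the same test, 1 of the 8 members was called lower in mfap4 cells than in the remaining cells without mitfa, where 9.58% of all genes tested were called lower. That was gch2, at -3.13 (SE 0.84, adjusted p = 0.0315). Profiles of mfap4 cells came from the 20 hpf and second 18 hpf libraries only, and the 24 hpf library entered through the shared fit. The remaining cells include those with pax7a alone: set against the cells with neither gene, gch2 in mfap4 cells was at 5.08 against 5.98 CPM in the second 18 hpf library (ratio 0.850, 0.306 to 1.91) and at 5.03 against 5.43 at 20 hpf (ratio 0.927, 0.184 to 2.91). The cells with neither gene also held cells with other macrophage markers, so these ratios do not set macrophages against cells free of such markers. qdpra and akr1b1.1 had differences of -2.15 (adjusted p = 0.101) and -1.02 (adjusted p = 0.464). gch2 kept its call in 8 of 11 alternatives and lost it without the 20 hpf library, without called doublets and without the library block. Without the 24 hpf library 4 of 7 members were called lower, where 27.9% of all genes tested were called in either direction. Without a filter on low counts it was 5 of 8, where 18.7% were called (3106 of 16600) in place of 21.6% (1984 of 9187).

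Mitfa cells were higher than mfap4 cells in 7 of the 8 members, where 1.92% of all genes tested were called higher, with gch2 at 9.43 (SE 0.92, edgeR adjusted p = 0.00633) and xdh the exception (adjusted p = 0.272). Of the 7, only gch2, qdpra and akr1b1.1 had UMIs in the mfap4 profiles. pts, aox5, slc2a15b and cx30.3 had none there and entered the test only through the other groups, so their calls add nothing to their counts. Without called doublets, 4 of the 8 passed, and without the library block none did. The shares of all genes tested that were called in either direction were 3.95% and 0.0653%.

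mitfa itself was found in 6 of the 36 mfap4 cells at 20 hpf and 13 of the 53 in the second 18 hpf library, and these cells had no gch2, pts, xdh, aox5, slc2a15b or cx30.3. The mitfa-only group was mixed in the same way. Of its cells, 28 of 49 in the second 18 hpf library and 7 of 28 at 20 hpf had 2 or more macrophage markers without mfap4, with 0 of 13 at 24 hpf, against 0 of 25, 1 of 31 and 1 of 21 doubly positive cells. In the first 18 hpf library it was 4 of 5 mitfa-only cells. Summed macrophage markers were at 2363, 867 and 4.94 CPM in mitfa-only cells and at 3.82, 11.8 and 90.6 in mitfa and pax7a cells. An alternative chosen after seeing the data left out such cells among the mitfa-only cells and the cells with neither gene. All doubly positive and pax7a-only cells were kept, so the removal was one-sided. There, 6 of the 8 members were again higher in mitfa and pax7a cells than in mitfa-only cells. Of all genes tested, 1.13% were called in either direction (70 of 6184) in place of 3.88% (268 of 6903).

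Cells of other types had gch2 UMIs as well. At 24 hpf gch2 had a UMI in 10 of 37 endoderm-marker cells (27.0%, median depth 11330 UMIs), 19 of 78 epithelial-marker cells (24.4%, 11317 UMIs) and 38 of 222 arch ectomesenchyme cells (17.1%, 13507.5 UMIs), types not known for pteridine pigment, and in 61 of 341 cells with neither gene. Thinned to 5000 UMIs, 6.74% of the cells with neither gene had gch2, against 100% of the doubly positive cells, whose median depth was 15229 UMIs. The levels of 14.5 to 21.9 CPM in the 3 types compare with 50569 CPM in the doubly positive cells. Shares of this size are not read as expression here, and free RNA was not measured. The same types had gch2 in 5.00% to 7.96% of cells at 20 hpf, and at 30 hpf it was in 0 of 131 cells, which allows up to 2.29%. aox5, xdh and slc2a15b had no UMI in the 341 cells at 24 hpf. qdpra had 41 UMIs in the cells with neither gene at 24 hpf against 103 in the doubly positive cells, while gch2 had 71 against 16182, and in the second 18 hpf library it was in 20.9% of NC-marker cells and 21.2% of arch ectomesenchyme cells but in 2.72% of mesoderm and 4.48% of endoderm cells.

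The enzymes that make the molybdenum cofactor, which xanthine dehydrogenase and aldehyde oxidases need, were also higher in the doubly positive cells. Against cells with neither mitfa nor pax7a, all 4 tested genes of the 6 listed were higher in mitfa and pax7a cells, with a median of 6.00 on the log2 scale beside -0.12 over all genes. They were mocs1 and mocs2, which build the cofactor's pterin core (6.81 and 4.94), gphna, a gephyrin that inserts molybdenum (5.19), and mocos (8.27), with edgeR adjusted p between 0.000241 and 0.000797. mocos was at 54.7, 152 and 267 CPM in mitfa and pax7a cells of the second 18 hpf, 20 hpf and 24 hpf libraries, against 0.726, 3.19 and 0 in mitfa-only cells. mocs2 was at 157, 480 and 864, against 44.3, 39.8 and 59.7. Against mitfa-only cells mocs1, mocs2 and mocos passed (3.79, 3.40 and 6.37) and gphna did not. In that comparison 1.26% of all genes tested were called higher. Genes called in either direction fell from 268 to 2 without the 20 hpf library. They fell to 70 without the mitfa-only cells and cells with neither gene that had other macrophage markers. The same limit holds for the listed genes set against mitfa-only cells in the paragraphs that follow.

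Of the 14 listed genes around biopterin, 4 were tested, and against cells with neither gene gch1, the other GTP cyclohydrolase (4.57, adjusted p = 0.00741), pcbd1, a carbinolamine dehydratase that recycles the cofactor (1.28, adjusted p = 0.0344), and pah, phenylalanine hydroxylase, which uses it (8.47, adjusted p = 0.000464), were higher in mitfa and pax7a cells, with a list median of 2.93. pah was at 35.6, 174 and 342 CPM in these cells in the second 18 hpf, 20 hpf and 24 hpf libraries, and at 1.45, 6.37 and 164 in mitfa-only cells. None of the 4 passed against mitfa-only cells (list median 1.71). Of the relatives of the oxidase, reductase, transporter and connexin, 1 of 2 tested passed, slc2a11b, another member of the sugar transporter family, at 6.88 against cells with neither gene (adjusted p = 0.000455) and 4.57 against mitfa-only cells (adjusted p = 0.0112).

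Genes of purine synthesis, which supplies GTP, were listed together with markers of iridophores, the reflective pigment cells. Of the 14 listed, 12 were tested, and 11 were higher in doubly positive cells than in cells with neither gene (list median 2.68), among them pnp4a and tpd52, which are known from iridophores. Against mitfa-only cells 8 were higher (list median 1.99, all genes -0.01), namely the purine synthesis genes paics, gart, atic, impdh1b, prps1a, ppat, pfas and gmps. Of all genes tested, 1.26% were called higher there, and impdh2 had a difference of -1.01 (edgeR adjusted p = 0.259). Without the 20 hpf library only 2 genes of all were called in this comparison, so most of these 8 calls were lost. impdh1b, the dehydrogenase on the way from IMP to GTP, was at 1104, 2413 and 4653 CPM in mitfa and pax7a cells of the second 18 hpf, 20 hpf and 24 hpf libraries and at 139, 110 and 209 in mitfa-only cells (4.24, SE 0.58, adjusted p = 0.00436 by edgeR). paics, a synthase of the purine ring, was at 579, 1183 and 2416 against 155, 218 and 159 (3.00, adjusted p = 0.0143). In pax7a-only cells of 18 hpf none of the 12 passed against cells with neither gene (list median 0.93).

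Melanin genes had UMIs in both kinds of mitfa cell. All 6 tested of the 14 listed were higher in mitfa and pax7a cells than in cells with neither gene (list median 6.07), and 0 of 6 passed against mitfa-only cells (list median 0.85). pmela, a melanosome matrix protein, was at 21.6, 479 and 170 CPM in the doubly positive cells and at 5.08, 147 and 2050 in the mitfa-only cells of the second 18 hpf, 20 hpf and 24 hpf libraries, so at 24 hpf the mitfa-only cells were the higher ones, as they were for qdpra. Of regulators and receptors, 5 of 7 tested were higher in doubly positive cells than in cells with neither gene (list median 4.14), and pax7b and pax3a, paired-box relatives of pax7a, also passed against mitfa-only cells (5.86, adjusted p = 0.00497, and 3.10, adjusted p = 0.0278, list median 1.77). pax7b was at 258 and 324 CPM in doubly positive cells at 20 and 24 hpf and at 0 in the mitfa-only cells of both. csf1ra, a receptor gene known from xanthophores and also among the macrophage markers used here, had 3, 4 and 1 UMIs in the doubly positive cells of these libraries.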

How the data were processed

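The authors mapped reads of 10x Genomics libraries to the zebrafish GRCz11 transcriptome with Cell Ranger, and the submitters' processing notes also name Seurat version 3. The deposited tables hold whole UMI counts per gene and cell after their removal of low-quality cells. The 6 timeline libraries were aggregated with Cell Ranger, which can subsample reads to even out depth; whether it did is not given in the sources used here. All 2854 deposited cells were used. One barcode was shared by the 12 and 14 hpf libraries. Scrublet through scanpy 1.11.5 called 0 to 4 cells as doublets in 6 libraries and 47 at 30 hpf. Whether these calls were right was not tested, so doublets were kept and their removal was an alternative.

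Counts were summed per library and cell group (10 cells or more) and tested with edgeR 4.0.16 in R 4.3.3 (quasi-likelihood test, TMM, filterByExpr, library as block, Benjamini-Hochberg threshold 0.05). DESeq2 1.42.0 was an alternative, as were other filters, group definitions and leaving out each library. The age trend was fitted to 6 library sums. Shares were also computed after thinning each cell to 5000 UMIs. Intervals were exact (Poisson, Clopper-Pearson, or conditional binomial for ratios). The tests were tested on simulated data. Cell types other than the groups were cells without mitfa and pax7a that had 2 or more markers of a list.

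The members and gene lists were chosen with earlier results of these data known. Named genes were the 8 members, the marker genes, listed genes that passed a test, and the 5 most similar genes of each member with 100 UMIs or more. Examples from listed genes and csf1ra were chosen after their values were seen. Promoter and protein sequences were not analysed here.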

Additional observations from a re-analysis of the deposited data

How the results depend on the processing

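Among the values of single members under an alternative, 543 kept their side of the threshold, 36 lost and 24 gained a call, and no called value reversed. The 543 include values called under neither setting, as for most members in the age trend, so they do not count calls that held. Against mitfa-only cells, every call of a member was lost without the 20 hpf library. The number of genes called over all genes moved more. Without a filter on low counts it was 2762 for mitfa against remaining cells (1431 as reported), 3106 for mfap4 against remaining cells (1984), 1292 for mitfa against mfap4 cells (457), 937 for mitfa and pax7a against mitfa-only cells (268), 2772 for mitfa and pax7a cells against neither (1455) and 526 for pax7a-only cells (93). More genes were tested there, such as 16600 in place of 9187 for mitfa against remaining cells. In the same order, the shares of genes tested that were called were 16.6% (15.6% as reported), 18.7% (21.6%), 7.78% (4.97%), 5.65% (3.88%), 16.7% (21.1%) and 3.17% (1.35%). Without the library block the same counts were 358, 701, 6, 20, 883 and 9. DESeq2's Wald test called 1183 genes in the age trend (463), 863 for mitfa against mfap4 cells and 142 for pax7a-only cells. Removing called doublets gave 282 and adding the second 18 hpf library 287 in the age trend, needing 2 UMIs gave 852 for mitfa cells, and profiles of 5 cells gave 491 for mitfa and pax7a against mitfa-only cells and 258 for pax7a-only cells. Leaving out cells with other macrophage markers, added after seeing the data, gave 1239 for mitfa against mfap4 cells and 70 for mitfa and pax7a against mitfa-only cells. For the latter no doubly positive cell was left out. Leaving out 1 library at a time gave 20 (without 24 hpf) to 414 in the age trend, 849 to 2015 for mitfa cells and 799 to 2418 for mfap4 cells. It gave 178 to 772 for mitfa against mfap4 cells and 2 (without 20 hpf) to 489 for mitfa and pax7a against mitfa-only cells. For cells with both against neither it gave 380 (without 20 hpf) to 1507, and for pax7a-only cells 21 (without 20 hpf) to 251 (without 24 hpf). Pax7a-only cells were not tested without either 18 hpf library, because fewer than 2 libraries then held both groups. The cause of these moves in the counts was not tested. Of the shares of cells under an alternative, 67 moved beyond their interval and 181 did not. The library was the block in every comparison of cell groups, so these were made within libraries. No paired analysis by replicate number was possible because the labels give no replicate numbers to pair libraries by. Every age but 18 hpf is 1 library, and both cell number and depth limit the shares: thinning took aox5 in doubly positive cells of the second 18 hpf library from 84.0% to 28.0%.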
